A study of Mus musculus with 15 samples.

Results

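miR-142a-5p, miR-142a-3p and miR-511-3p were followed across 15 small RNA libraries of mouse Kupffer cells, the macrophages that reside in the liver. They were taken by name (mmu-miR-142a-5p, mmu-miR-142a-3p and mmu-miR-511-3p) and are 3 of the 248 mature miRNAs listed in both deposited tables, 1 table per age. The libraries came from C57BL/6J mice, labelled wt, at 9 weeks (n = 4) and 14 weeks (n = 4), and from ob/ob mice, an obese strain with a mutated leptin gene, at 9 weeks (n = 3) and 14 weeks (n = 4). No treatment is named in the labels for any group. Neither the background strain of the ob/ob animals nor the way the cells were isolated is stated in the labels. The labels do not tie replicates to separate animals either, and the spread behind each p-value may thus be technical. The series title places the comparison in work on obesity-associated insulin resistance and the antioxidant response.

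miR-142 is a miRNA of blood cell lineages, and both arms of its hairpin are known as mature miRNAs. miR-511 lies inside Mrc1, the gene of the macrophage mannose receptor, and its 3p arm is the form known from tissue macrophages. A mature miRNA finds its targets mainly through its seed, bases 2 to 8 from the 5′ end. The mature sequences are shown because the arms of miR-142a are read against each other throughout, with the seed in capitals and written 5′ to 3′ (RefSeq, GRCm38.p6). miR-142b, the miRNA annotated on the opposite strand of the same locus, is shown for its overlap with the 3p arm.
miR-142a-5p: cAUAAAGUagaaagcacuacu
miR-142a-3p: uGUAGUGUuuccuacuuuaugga
miR-511-3p: aAUGUGUAgcaaaagacaggau
miR-142b: uCCAUAAAguaggaaacacu

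The 3 seeds differ from each other, and none of the 3 is the seed of another mature miRNA in the RefSeq table. miR-142b matches the reverse complement of miR-142a-3p over 20 bases, and it shares a run of 10 bases, cauaaaguag, with miR-142a-5p. miR-142b was not analysed here. Of the 218 listed miRNAs matched to RefSeq (of 248), 10 overlap an annotated mature miRNA on the opposite strand, miR-142a-3p among them. With a GC content of 33.3% for miR-142a-5p, 34.8% for miR-142a-3p and 36.4% for miR-511-3p, all members lie below the median of 47.6% over the 218 matched miRNAs.

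The hairpins show where the arms sit, with the annotated mature arms in capitals.
Mir142: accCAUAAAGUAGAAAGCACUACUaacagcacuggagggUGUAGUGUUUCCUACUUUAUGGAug
Mir511: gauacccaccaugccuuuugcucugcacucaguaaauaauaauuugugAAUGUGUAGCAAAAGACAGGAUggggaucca

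Mir142 occupies chr11:87756864-87756927 on the plus strand, with the 5p arm at chr11:87756867-87756887 and the 3p arm at chr11:87756903-87756925. In GENCODE vM21 (GRCm38) it lies in intron 1 of Mir142hg, a long non-coding RNA gene of 2 exons at chr11:87755577-87757270. Mir511 occupies chr2:14261003-14261081 on the plus strand, with miR-511-3p at chr2:14261051-14261072. It lies in intron 5 of Mrc1, a protein-coding gene of 30 exons at chr2:14229392-14332057 on the same strand.

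Levels are given in RPM, reads per 1000000 reads, the unit inferred for the authors' values. In every library each value above 0 lay within 0.1 reads of a whole multiple of 1 step, which was read as the worth of 1 read. The step gives depths of 9.08 to 98.1 M reads (M, 1000000) per library with a median of 25.9, and 1 read was worth 0.0102 to 0.110 RPM. The reads are not independent molecules, so intervals built on them cover counting error only. The 248 miRNAs summed to 147387 to 358621 RPM per library. The first wt replicate at 14 weeks had the lowest sum, the lowest depth and the largest number of miRNAs listed at 0, 45, against 10 to 28 in the other libraries. At 9 weeks the sums did not overlap between genotypes, at 336291 ± 28950 RPM (SD, n = 4) in wt and 242718 ± 10479 RPM (SD, n = 3) in ob/ob, so results are also given after median-ratio rescaling of each library. The rescaling moved the median log2 fold change of all tested miRNAs from -0.51 to 0.00 at 9 weeks and from 0.20 to 0.00 at 14 weeks.

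The 5p arm of miR-142a was among the 22 most abundant of the 248 miRNAs in every library, ranking 14 to 22. In wt at 9 weeks it stood at 3873, 2975, 3441 and 4320 RPM in replicates 1 to 4. In ob/ob at 9 weeks the 3 libraries held 2060, 3171 and 2532 RPM. The ranges overlap through the second replicate of each genotype, and the other ob/ob libraries lie below all wt libraries.

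At 14 weeks miR-142a-5p measured 1756, 2534, 2615 and 2754 RPM in wt. The ob/ob libraries of that age held 2242, 3566, 3401 and 3906 RPM. Replicates 2 to 4 of ob/ob lie above every wt library, and replicate 1 lies inside the wt range. These values rest on 15943 to 349649 reads per library, so counting error is small beside the spread between replicates.

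From highest to lowest, the group means of miR-142a-5p were 3653 ± 577 RPM (SD, n = 4) in wt at 9 weeks, 3279 ± 722 (SD, n = 4) in ob/ob at 14 weeks, 2588 ± 558 (SD, n = 3) in ob/ob at 9 weeks and 2415 ± 449 (SD, n = 4) in wt at 14 weeks. Each pair of neighbours in this order differs by less than the larger of their SDs. Ages are not tested against each other, since each age has its own table and may have been normalized on its own.

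**Figure D1:**
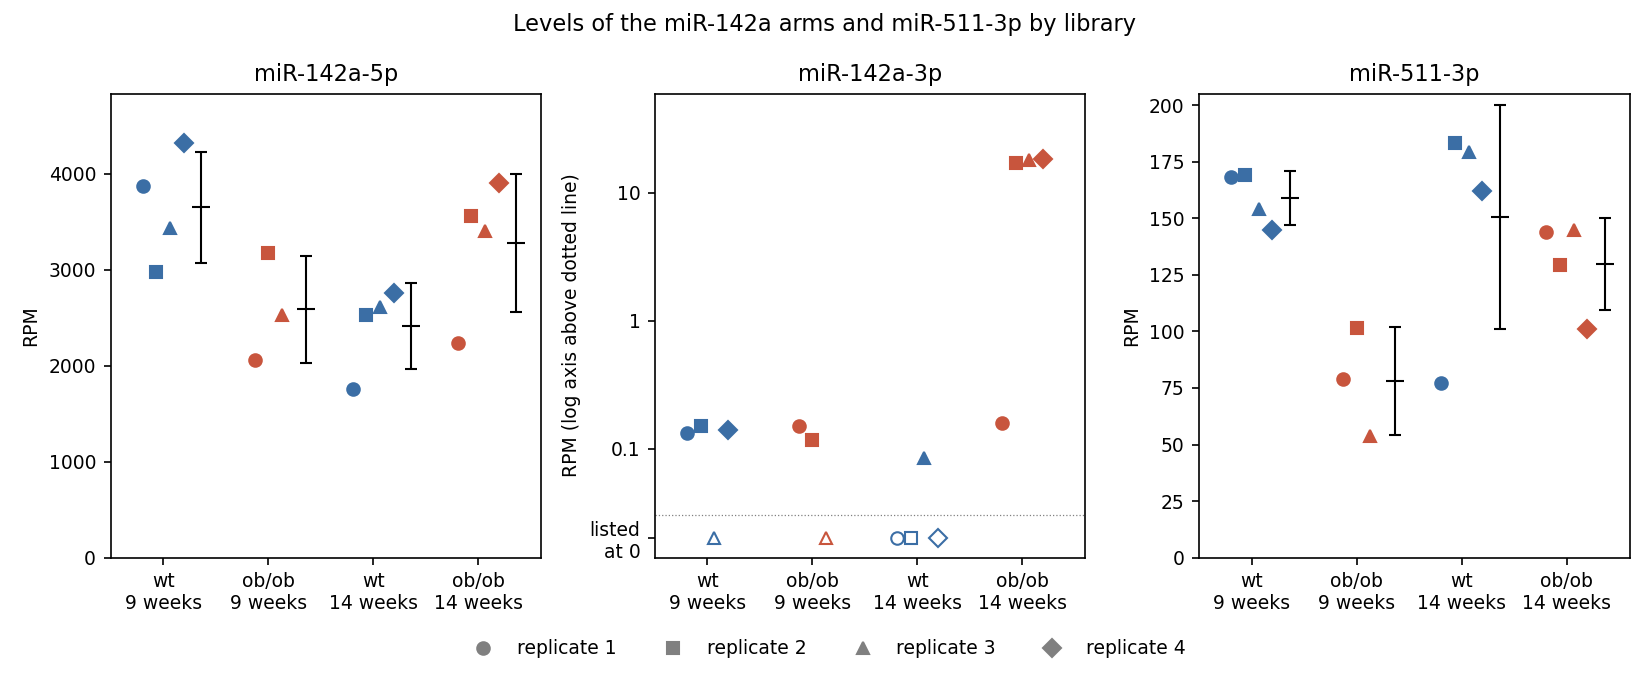
Levels by library in RPM for miR-142a-5p (linear axis), miR-142a-3p (log axis, open symbols for libraries listed at 0) and miR-511-3p (linear axis). Points are libraries with a symbol per replicate number, blue for wt and red for ob/ob, and black bars are the mean and SD in the outer panels. miR-142a-3p stands at 17.1 to 18.6 RPM in replicates 2 to 4 of ob/ob at 14 weeks and at 0.159 RPM or less in the other 12 libraries.

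The genotypes were compared with limma on log2(RPM + 0.5) over all tested miRNAs, with Benjamini-Hochberg adjustment and a threshold of 0.05. A miRNA was tested at an age when 4 libraries (14 weeks) or 3 libraries (9 weeks) reached 1 RPM. miR-142a-5p and miR-511-3p were tested at both ages, and miR-142a-3p at neither. At 9 weeks 1 of the 2 tested members, miR-511-3p, was called, where the same rule called 37.4% of 179 miRNAs. At 14 weeks limma called 0 of the 2, with 0 at an unadjusted p under 0.05, against 15.2% of 171 called, and limma without trend or robust fitting also called 0 of the 2.

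For miR-142a-5p at 9 weeks the log2 fold change of ob/ob over wt was -0.51 ± 0.21 (SE; limma adjusted p = 0.0895), with a 95% confidence interval of -0.99 to -0.03. That value equals the median of all 179 tested miRNAs to 2 decimals. After rescaling the difference was 0.00 ± 0.20 with an interval of -0.46 to 0.46 (limma adjusted p = 0.996). With the GC correction added it was -0.28 ± 0.19 (limma adjusted p = 0.313). As a share of the listed miRNAs it made up 0.900% to 1.20% in wt and 0.893% to 1.27% in ob/ob at 9 weeks, and these ranges overlap almost wholly. Without the second ob/ob replicate the unscaled difference was -0.66 and passed the test (limma adjusted p = 0.0364). The other 6 of the 7 fits with 1 library left out did not pass (limma adjusted p up to 0.258). After rescaling none of the 7 passed (lowest limma adjusted p = 0.570).

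At 14 weeks the log2 fold change of miR-142a-5p was 0.43 ± 0.26 (SE; limma adjusted p = 0.306), with an interval of -0.16 to 1.02. After rescaling it was 0.21 ± 0.24 (limma adjusted p = 0.542), with an interval of -0.32 to 0.75. With a GC correction added to the rescaling it was -0.28 ± 0.21 (limma adjusted p = 0.356), so the direction at this age turned with the scaling. The libraries of 14 weeks ran in lanes 1 and 2, with 2 libraries of each genotype in each. Within lane 1 the unscaled difference was 0.42 ± 0.72, and within lane 2 it was 0.44 ± 0.17 (limma adjusted p = 0.770 and 0.137). All libraries of 9 weeks ran in lane 2.

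miR-142a-3p, the other arm of the same hairpin, was near or at the limit of a few reads in 12 of the 15 libraries. In wt at 9 weeks it stood at 0.132, 0.149, 0 and 0.140 RPM, or 3, 2, 0 and 2 reads. In ob/ob at 9 weeks it stood at 0.150, 0.116 and 0 RPM, or 5, 3 and 0 reads. In wt at 14 weeks the 4 libraries were listed at 0, 0, 0.0844 and 0 RPM, the single value standing for 2 reads. The genotypes overlap at 9 weeks, and neither holds a library above 0.150 RPM there. How reads were assigned to this arm was not tested, as the counting tool and miRNA annotation are not given. The low values are thus as listed and may not show how rare the arm is in Kupffer cells.

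The ob/ob libraries of 14 weeks held 0.159, 17.1, 18.0 and 18.6 RPM of miR-142a-3p, or 7, 1681, 1062 and 957 reads. Replicates 2, 3 and 4 lie close together and more than 100 times above replicate 1, which lies beside the libraries of the other groups. The 4 ob/ob libraries all lie above the 4 wt libraries of that age, as do those of 18.1% of the 248 miRNAs. By rank the 3p arm stood at places 204 to 235 of 248 in 12 libraries and at places 98 to 101 in those 3. In a library listed at 0 the place is shared by all miRNAs at 0, so it follows their number and not a level. Places 204 and 235 are both from such libraries, the first and second wt replicates of 14 weeks.

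At 14 weeks the mean level of miR-142a-3p differed between genotypes by 13.4 RPM (two-sided exact permutation p = 0.0286, the smallest that 4 against 4 libraries allow), higher in 4 of 4 ob/ob libraries. Of these, replicate 1 stood at 0.159 RPM (7 reads), beside 0.0844 RPM (2 reads) in the highest wt library. The p is this small only because of the order of these low values, each of a few reads. This test was added after the values were seen, and adjusted over the 6 permutation tests made its p is 0.171. At 9 weeks the difference was -0.0165 RPM (exact permutation p = 0.657). Without the filter on low values limma gave a log2 fold change of 3.94 ± 1.08 at 14 weeks (adjusted p = 0.0487) and called 14.5% of 248 miRNAs. This p rests on the same 3 high ob/ob libraries, with every other value under the 0.5 RPM added, and is no separate support. At 9 weeks the unfiltered fit gave -0.04 ± 0.16 (limma adjusted p = 0.882), where 28.6% of 248 were called. In the fits that use the filter, miR-142a-3p could enter at this age through the 3 high ob/ob libraries alone, so no p is given from them.

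The 3 libraries with the high 3p arm are also the 3 deepest of the 15, at 98.1, 59.0 and 51.5 M reads. The fourth deepest, replicate 1 of the same group at 44.0 M reads, held 0.159 RPM, and the fifth deepest, the second wt replicate of 14 weeks at 39.0 M reads, was listed at 0. Within lane 1, the ob/ob libraries held 0.159 and 17.1 RPM, and within lane 2 they held 18.0 and 18.6 RPM, beside 0 to 0.0844 RPM in the wt libraries of both lanes. The part of depth in the difference was not tested.

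Values under 0.5 RPM in 1 library and of 10 RPM or more in another of the same table were not limited to miR-142a-3p. At 14 weeks 11 of the 126 miRNAs that reached 10 RPM in some library were below 0.5 RPM in another library, or 8.73%. At 9 weeks 8 of 124 did so, or 6.45%, and 7 miRNAs did so at both ages. The rule asks for a smaller gap than that of miR-142a-3p, and miR-145a-5p met it at 14 weeks with 0.408 to 20.9 RPM. It also takes in miR-144-5p, which parted by genotype at 14 weeks, at 11.6 to 32.4 RPM in ob/ob and 0.331 to 0.974 RPM in wt. miR-151-3p reached 1401 RPM in 1 wt library of 14 weeks and was listed at 0 in others, and miR-126a-3p reached 3780 RPM and was listed at 0 in the second ob/ob replicate of 14 weeks. Among those 11, miR-142a-3p alone was high in exactly replicates 2 to 4 of ob/ob. An exact 0 can stand beside such levels in the same table, and a value of 0 is given here as listed, not as absence.

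The arm ratio, 5p over 3p reads, does not depend on library scaling and has a value in 10 of the 15 libraries. In wt at 9 weeks it was 29406 (95% Poisson interval 10062 to 142591), 19968 (5528 to 164882) and 30880 (8548 to 254982) in replicates 1, 2 and 4. In ob/ob at 9 weeks it was 13718 (5878 to 42250) and 27362 (9363 to 132681) in replicates 1 and 2. All 5 intervals overlap, since each rests on 2 to 5 reads of the 3p arm.

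At 14 weeks the ratio had a value in a single wt library, 30987 (8578 to 255866) in replicate 3, since the other wt libraries listed the 3p arm at 0. In the ob/ob libraries it was 14110 (6848 to 35094), 208 (198 to 218), 189 (178 to 201) and 210.3 (197 to 224). The 3 low ratios rest on 957 to 1681 reads of the 3p arm and lie outside the intervals of the other 7 libraries.

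**Figure D2:**
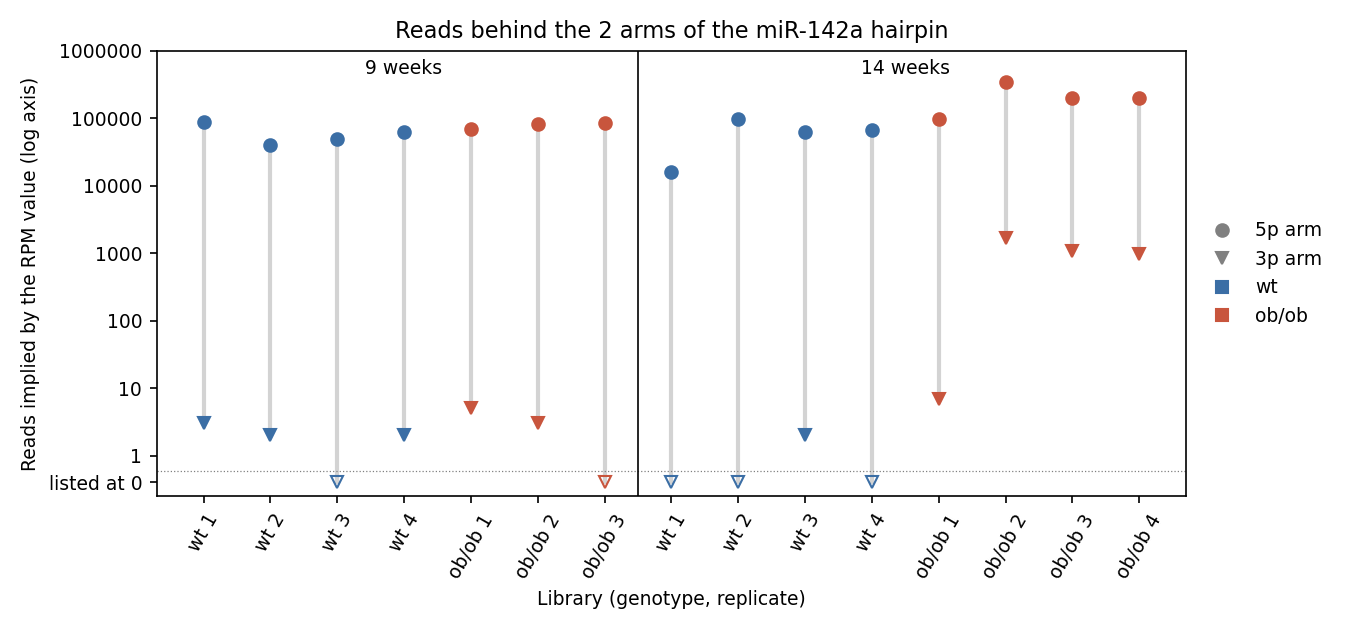
Reads implied by the RPM values of the 5p arm (circles) and 3p arm (triangles) of the miR-142a hairpin in each library, on a log axis, with open triangles where the 3p arm is listed at 0; the vertical line parts the ages. The 5p arm stands at 15943 to 349649 reads throughout, and the 3p arm at 0 to 7 reads except for 957 to 1681 reads in replicates 2 to 4 of ob/ob at 14 weeks.

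On the log2 scale the mean arm ratio at 9 weeks differed by -0.44 between ob/ob and wt (exact permutation p = 0.5, 2 against 3 libraries, the smallest p possible being 0.1). At 14 weeks it differed by -5.73 (exact permutation p = 0.2, 4 libraries against 1, the smallest p possible being 0.2), so that design cannot reach the threshold. With 0.5 RPM added to both arms, which brings in the libraries listed at 0, the difference at 14 weeks was -3.51 (exact permutation p = 0.0286, the smallest possible, not adjusted), and with 5 RPM added it was -1.22 (exact permutation p = 0.0571). The added 0.5 RPM exceeds every low value of the 3p arm, so this restates the difference in its level and is no separate result. Adjusted over the 4 ratio tests, the p of the plain ratio at 14 weeks is 0.267.

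Of the hairpins with both arms in the tables, 70 in all, 45 to 65 had both arms above 0 in a given library. Ordered by how unequal the arms were, miR-142a ranked 2 to 4 in the 7 libraries with few 3p reads. In those libraries its log2 ratio was 13.7 to 14.9, beside medians over hairpins between 6.01 and 6.79. In replicates 2, 3 and 4 of ob/ob at 14 weeks it ranked 26, 24 and 22, with log2 ratios of 7.70, 7.56 and 7.72 beside medians of 7.26, 6.29 and 6.66. In these 3 libraries, with 61, 64 and 64 hairpins ranked, the hairpin was thus more unequal than the median hairpin. In the other 7 it was near the extreme held mostly by miR-21a.

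miR-511-3p ranked between places 51 and 74 of 248. In wt at 9 weeks it stood at 168, 169, 154 and 145 RPM. In ob/ob at 9 weeks it stood at 78.9, 101 and 53.6 RPM. The genotypes do not overlap at this age, as was so for 32.3% of the 248 miRNAs in the same direction.

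At 14 weeks miR-511-3p measured 77.3, 183, 179 and 162 RPM in wt. In ob/ob it measured 144, 129, 145 and 101 RPM. The first wt replicate, the library with the lowest sum and depth, lies below all ob/ob libraries, and the other wt libraries lie above them.

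The group means of miR-511-3p were 159 ± 11.8 RPM (SD, n = 4) in wt at 9 weeks, 150.5 ± 49.6 (SD, n = 4) in wt at 14 weeks, 129.8 ± 20.3 (SD, n = 4) in ob/ob at 14 weeks and 77.9 ± 23.9 (SD, n = 3) in ob/ob at 9 weeks. The first 3 differ from their neighbours by less than the larger SD. The gap down to ob/ob at 9 weeks exceeds the SD of either neighbour, with the ages held in separate tables.

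At 9 weeks miR-511-3p fell in ob/ob by 1.07 on the log2 scale (limma log2 fold change -1.07 ± 0.24, adjusted p = 0.00984), with an interval of -1.61 to -0.53, lower in 3 of 3 ob/ob libraries. The median of all tested miRNAs moved in the same direction, by -0.51, and 32.4% of the 179 were called lower. The call held when any 1 library was left out, with limma adjusted p-values of 0.00444 to 0.0299. After rescaling the difference was -0.56 ± 0.21 with an interval of -1.05 to -0.08, and the call ended (limma adjusted p = 0.0860), where 10.2% of 177 miRNAs were called lower. As a share of the listed sum it was -0.60 ± 0.24 (limma adjusted p = 0.106), where 8.99% of 178 were called lower. With rescaling and GC correction it was -0.78 ± 0.21 (limma adjusted p = 0.0327), where 13.4% of 157 were called lower.

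The rescaled levels of miR-511-3p at 9 weeks ran from 124 to 143 in wt and from 67.2 to 116 in ob/ob without overlap, as for 17.3% of the 248 miRNAs in this direction. Its share of the listed sum was 0.0469%, 0.0512%, 0.0517% and 0.0404% in wt and 0.0342%, 0.0405% and 0.0217% in ob/ob. On that scale the lowest wt library and the highest ob/ob library touch. The direction was the same on each of these scales, and the size fell to between 0.56 and 0.78 of a log2 unit once the library totals were set level.

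At 14 weeks the log2 fold change of miR-511-3p was -0.15 ± 0.33 (limma adjusted p = 0.815), with an interval of -0.89 to 0.59. The difference at 9 weeks on the same scale, -1.07, lies outside that interval, but its own interval, -1.61 to -0.53, overlaps it. In the interaction model, which compares the ages, miR-511-3p was not called (limma adjusted p = 0.184). Without the first wt replicate the difference at 14 weeks was -0.44 ± 0.19 (limma adjusted p = 0.128). After rescaling all libraries it was -0.36 ± 0.16 (limma adjusted p = 0.120). The rescaled interval, -0.72 to -0.01, takes in the rescaled difference at 9 weeks, -0.56. With the GC correction added the difference at 14 weeks was -0.75 ± 0.16 and passed the test (limma adjusted p = 0.00922), where 12.7% of 150 miRNAs were called lower. Unscaled, the difference was 0.20 ± 0.84 within lane 1 and -0.49 ± 0.25 within lane 2 (limma adjusted p = 0.899 and 0.210). Rescaled, it was -0.32 ± 0.39 within lane 1 and -0.41 ± 0.20 within lane 2 (limma adjusted p = 0.693 and 0.159).

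The share of miR-511-3p in the listed sum at 14 weeks was 0.0525%, 0.0577%, 0.0540% and 0.0458% in wt. In ob/ob it was 0.0449%, 0.0395%, 0.0434% and 0.0371%. All 4 ob/ob libraries lie below all 4 wt libraries on this scale, as was so for 10.9% of the 248 miRNAs. The rescaled levels gave the same separation, 134 to 161 in wt and 108 to 124 in ob/ob, again with 10.9% of the 248 miRNAs in this direction.

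**Figure D3:**
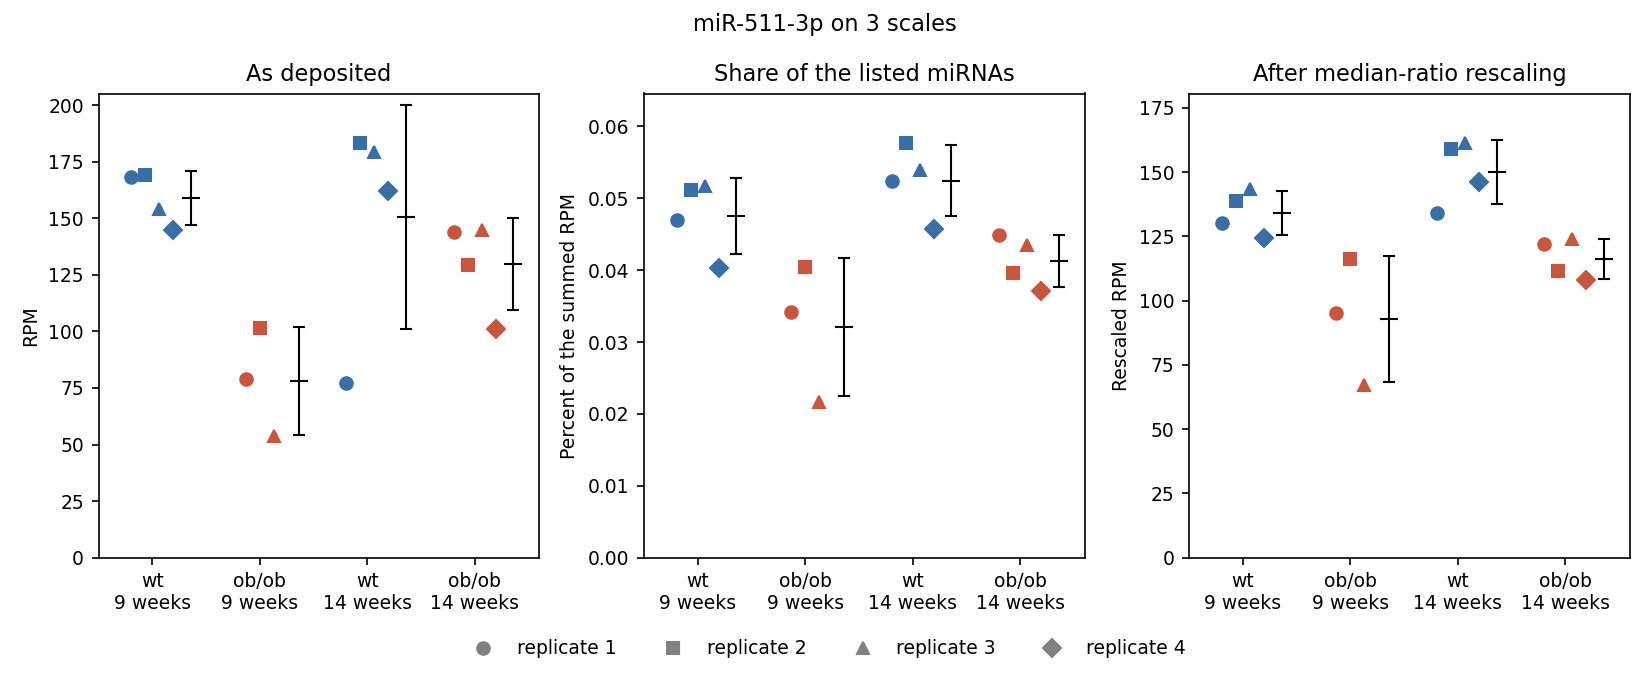
miR-511-3p by library as deposited (RPM), as a percent of the summed RPM of the listed miRNAs, and after median-ratio rescaling; points are libraries with a symbol per replicate number, and bars are the mean and SD. The first wt replicate of 14 weeks stands at 77.3 RPM as deposited and joins the other wt libraries on the other scales, where wt and ob/ob do not overlap at 14 weeks.

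**Figure D4:**
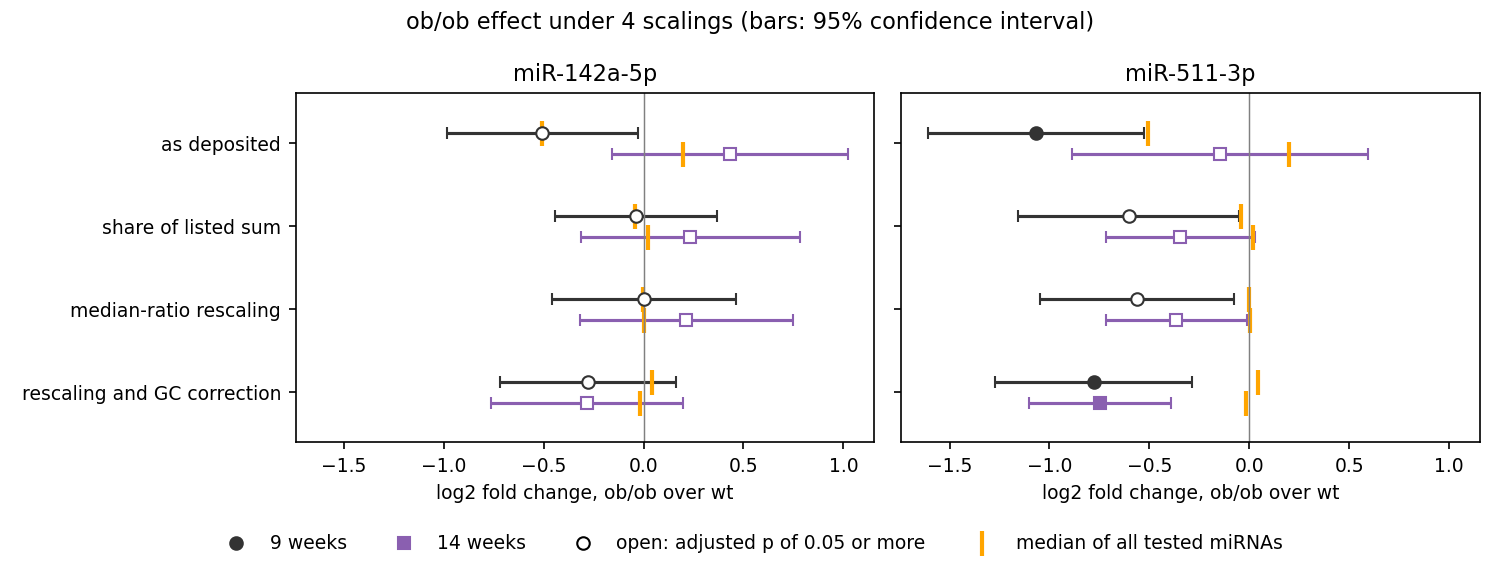
log2 fold change of ob/ob over wt for miR-142a-5p and miR-511-3p under 4 scalings, with 95% confidence intervals from limma; circles are 9 weeks, squares 14 weeks, filled symbols have an adjusted p under 0.05 and orange ticks mark the median of all tested miRNAs. miR-142a-5p at 9 weeks lies on that median as deposited, and miR-511-3p lies below it at both ages under each of the 4 scalings.

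The ratio of miR-142a-5p to miR-511-3p, which needs no scaling, was 23.0, 17.6, 22.4 and 29.8 in wt and 26.1, 31.3 and 47.3 in ob/ob at 9 weeks. At 14 weeks it was 22.7, 13.8, 14.6 and 17.0 in wt and 15.6, 27.6, 23.5 and 38.6 in ob/ob. The genotypes overlap at both ages, through the fourth wt replicate at 9 weeks and the first ob/ob replicate at 14 weeks. In log2 terms miR-511-3p relative to miR-142a-5p was lower in ob/ob by a mean of -0.57 at 9 weeks (exact permutation p = 0.0857, 4 against 3 libraries) and -0.58 at 14 weeks (exact permutation p = 0.114, 4 against 4). Adjusted over the 4 ratio tests both p-values are 0.229, and neither difference passed.

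**Figure D5:**
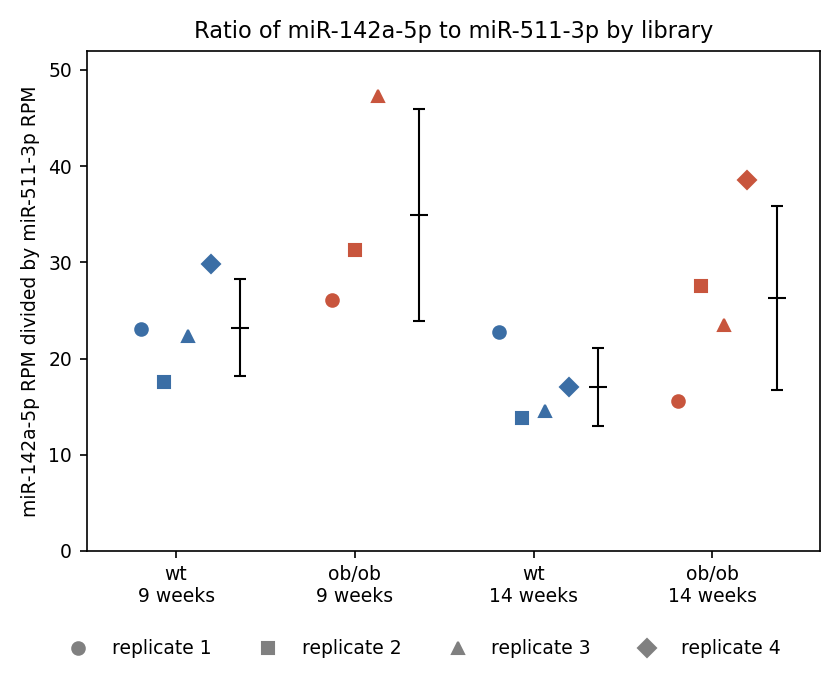
miR-142a-5p RPM divided by miR-511-3p RPM in each library, with the mean and SD beside each group (4, 3, 4 and 4 libraries) and a symbol per replicate number. The ratio runs from 17.6 to 29.8 in wt and 26.1 to 47.3 in ob/ob at 9 weeks, and from 13.8 to 22.7 and 15.6 to 38.6 at 14 weeks, with overlap at both ages.

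Whether the ob/ob effect differed between the ages was tested as an interaction in a model of all 15 libraries, where all 3 members passed the filter. Neither miR-142a-5p nor miR-511-3p was called, and the model called 0 of 187 miRNAs, with 48 at an unadjusted p under 0.05. limma without trend or robust fitting also called 0, with 50 at an unadjusted p under 0.05. For miR-142a-3p the difference of effects (14 minus 9 weeks) was 3.99 ± 1.20. This arm entered the model only through the 3 libraries in which it was high, so the difference is given with no test. Its size depends on the pseudocount, at 5.88 with 0.1 RPM and 1.66 with 5 RPM in place of 0.5. Without the first ob/ob replicate of 14 weeks, the library of that group with a low value, the difference was 5.19, given with no test. For miR-142a-5p it was 0.94 ± 0.34 (limma adjusted p = 0.132) as deposited and 0.21 ± 0.32 (limma adjusted p = 0.799) after rescaling. For miR-511-3p it was 0.92 ± 0.41 (limma adjusted p = 0.184) as deposited and 0.20 ± 0.23 (limma adjusted p = 0.717) after rescaling. The median over all 187 miRNAs was 0.68 as deposited.

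The markers fixed for blood cells and macrophages in this dataset are the members themselves, so they give no independent check of the cell label. miR-142a-5p and miR-511-3p were above 0 in every library, and miR-511-5p was not analysed here. Markers of other liver cells were present beside them. The 4 hepatocyte miRNAs (miR-122-5p, miR-122-3p, miR-192-5p and miR-194-5p) summed to 1100 to 2222 RPM in wt and 3966 to 5524 RPM in ob/ob at 9 weeks, and to 1099 to 1689 and 3169 to 6899 RPM at 14 weeks. Most of each sum was miR-192-5p, at 978 to 2007 RPM in wt and 3687 to 5148 RPM in ob/ob at 9 weeks, and 983 to 1524 and 2937 to 6628 RPM at 14 weeks. At each age 2 of the 3 tested were called higher in ob/ob, and after rescaling 3 of 3 at 9 weeks and 1 of 3, miR-192-5p, at 14 weeks. miR-122-5p was called higher at 9 weeks on both scales. At 14 weeks it was called on neither, at 0.57 as deposited and 0.35 rescaled (limma adjusted p = 0.551 and 0.771). Of all tested miRNAs, 37.4% of 179 at 9 weeks and 15.2% of 171 at 14 weeks were called in either direction. After rescaling these shares were 21.5% of 177 and 28.6% of 168, and they stand beside the other marker lists too. None of the 4 hepatocyte miRNAs was at 0 in any library.

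The endothelial pair miR-126a-5p and miR-126a-3p summed to 42296 to 59286 RPM in wt and 18455 to 45923 RPM in ob/ob at 9 weeks. At 14 weeks the pair summed to 10833 to 63153 RPM in wt and 33631 to 55779 RPM in ob/ob. At 9 weeks miR-126a-3p was called lower in ob/ob as deposited, a call not made after rescaling, and at 14 weeks neither was called. The 5 stellate and mesenchymal miRNAs summed to 1380 to 1800 RPM in wt and 934 to 1567 RPM in ob/ob at 9 weeks, and to 495 to 1860 and 1347 to 2668 RPM at 14 weeks. Of the 4 tested, 2 were called lower in ob/ob at 9 weeks (miR-199a-3p and miR-214-3p, with 1 after rescaling), and at 14 weeks 0 as deposited and 1 higher after rescaling (miR-143-3p). At 9 weeks 32.4% of all 179 miRNAs were called lower, and 10.2% of 177 after rescaling. In the stellate and mesenchymal list miR-199a-5p and miR-145a-5p were at 0 in some libraries. The biliary and epithelial miRNAs, 4 of 5 listed, summed to 51.5 to 71.1 RPM in wt and 54.4 to 87.3 RPM in ob/ob at 9 weeks, and to 22.7 to 56.4 and 53.0 to 103 RPM at 14 weeks. miR-141-3p was called higher in ob/ob at 14 weeks on both scales and at 9 weeks after rescaling.

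The lymphocyte pair miR-150-5p and miR-181a-5p summed to 7298 to 7533 RPM in wt and 4854 to 6633 RPM in ob/ob at 9 weeks, with neither called at either age. The erythroid marker miR-144-5p stood at 0.521 to 1.49 RPM in wt and 14.7 to 21.7 RPM in ob/ob at 9 weeks. At 14 weeks it stood at 0.331 to 0.974 and 11.6 to 32.4 RPM, and it was called higher in ob/ob at both ages on both scales. The part of other cell types in the values of miR-142a and miR-511-3p was not tested, and in these bulk samples fewer cells of a type and less RNA per cell cannot be told apart.

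Of 12 miRNAs of blood cells in a fixed list, 9 are in the tables and 8 were tested. At 9 weeks 1 was higher and 0 lower in ob/ob, with a median log2 fold change of -0.20 beside -0.51 over all 179 miRNAs, of which 37.4% were called in either direction. At 14 weeks 2 were higher and 0 lower, with a median of 0.57 beside 0.20 over all 171, of which 15.2% were called. After rescaling 2 were higher and 0 lower at each age, where 21.5% of 177 miRNAs at 9 weeks and 28.6% of 168 at 14 weeks were called in either direction. miR-146b-5p, a brake on NF-kB signalling, was higher at both ages, at 645 ± 343 RPM (SD, n = 3) in ob/ob and 94.1 ± 58.2 (SD, n = 4) in wt at 9 weeks. Its log2 fold changes were 2.86 at 9 weeks and 1.79 at 14 weeks (limma adjusted p = 0.00917 and 0.0175).

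Of 13 miRNAs tied to macrophage activation, miR-511-3p among them, 9 are in the tables and 8 were tested. At 9 weeks 1 was higher and 3 were lower in ob/ob, with a median of -0.17 beside -0.51 over all 179 miRNAs. Of those 179, 32.4% were called lower, a share near that of the list. miR-125a-5p, at 1977 ± 570 RPM (SD, n = 4) in wt and 622 ± 219 (SD, n = 3) in ob/ob, fell by 1.67 (limma adjusted p = 0.00543). miR-125b-5p, at 186 ± 31.8 and 81.3 ± 23.5 RPM, fell by 1.21 (limma adjusted p = 0.00698), and miR-511-3p was the third. After rescaling 9 of the list were tested, and miR-125a-5p alone of these 3 was called lower, where 10.2% of 177 miRNAs were called lower. On that scale miR-146a-5p joined miR-146b-5p as higher, where 21.5% of 177 were called in either direction.

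At 14 weeks 2 of the 8 were higher and 0 lower as deposited, with a median of 0.03 beside 0.20, where 15.2% of 171 miRNAs were called in either direction. miR-155-5p, induced in macrophages by inflammatory signals, rose from 7.54 ± 3.11 RPM (SD, n = 4) in wt to 18.9 ± 4.40 (SD, n = 4) in ob/ob (log2 fold change 1.31, limma adjusted p = 0.0201), and miR-146b-5p was the other. After rescaling 2 were higher and 2 lower, the lower being miR-125a-5p and miR-125b-5p, and the median was -0.18 beside 0.00, where 28.6% of 168 were called. miR-511-3p was called on neither of these scales at 14 weeks.

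Likeness of pattern was measured as the root mean square difference of log2(RPM + 0.5), centred within each age, over the 15 libraries, among miRNAs above 0 in all libraries whose mean reached 10 RPM at each age. Nearest to miR-142a-5p were miR-22-3p at 0.18, miR-107-3p at 0.19 and miR-140-3p at 0.21, beside a median of 0.48 over 105 miRNAs. Nearest to miR-511-3p were miR-532-5p at 0.20, let-7a-5p at 0.21 and miR-30b-5p at 0.22, beside a median of 0.46. miR-142a-5p was 50th in closeness to miR-511-3p, at 0.45, so the 2 members were about as unlike as a middling pair. Nearest to miR-142a-3p were miR-19a-3p at 1.05, miR-192-5p at 1.29 and miR-340-5p at 1.30, none of them close, beside a median of 1.83 over 106. The libraries share depth and total in all of these values, and they are given as a description.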

How the data were processed

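Small RNA was extracted with a miRNeasy kit, prepared with the TruSeq Small RNA kit and sequenced on a HiSeq instrument, per the labels' protocols. The submitters' processing notes name bcl2fastq, cutadapt, GRCm38.p5 and mm10. Not given in the sources used here: aligner, counting tool, miRNA annotation and denominator. The authors deposited 1 table per age, whose values were taken as RPM from the values themselves, since no header states a unit. The design foresaw a count test for counts; as the values are normalized, limma-trend was used, on log2(RPM + 0.5), with Benjamini-Hochberg adjustment over all tested miRNAs and a threshold of 0.05 (R 4.3.3, limma 3.58.1, eBayes with trend and robust set).

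Fold changes on this scale understate those of rare miRNAs. Each age was fitted alone. The filter of 1 RPM applied to 4 libraries at 14 weeks and 3 at 9 weeks and in the interaction. Median-ratio rescaling divided each library by its median ratio to the geometric mean of its age, using miRNAs above 0 throughout whose mean reached 5 RPM. The GC correction was linear, per library, on the 218 of 248 miRNAs (87.9%) matched to RefSeq. Arm ratios and single levels were compared with two-sided exact permutation tests in Python 3.11.15. Lane numbers come from the labels.

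The fits were tested on simulated data (20 runs, 40 miRNAs changed in each). The simulation started from rescaled values, drew noise for each miRNA on its own and held no shift in library totals. Its shares may thus not hold for the fits as deposited, where library totals differed. At 9 weeks, with 177 miRNAs, 65.5% of changes of 2-fold and 85.0% of those of 4-fold were recovered. The shares were 56.2% and 88.5% at 14 weeks (179 miRNAs) and 40.0% and 79.8% for the interaction (188 miRNAs). False calls made up a mean of 3.75%, 3.85% and 3.16% of the calls in these 3 comparisons. The members and lists were chosen with earlier results of these data known. Named beside the members were called list members (up to 4 per list and age, by smallest p) and the 3 miRNAs most like each member. Alternatives were other pseudocounts, no filter, other scalings, plain limma, single lanes, the replicate number as a block, and leaving out each library. miR-151-3p and miR-126a-3p were named after their values were seen.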

Additional observations from a re-analysis of the deposited data

Results flagged for a closer look

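In groups of 4 libraries, 22 sets of values were screened for a library whose gap to its nearest neighbour took up more of the range than Dixon's 95% limit allows. Of these 6 had one. The chance rate of about 1 in 20 does not hold here, since the sets share libraries and some rest on ties at 0 or on a few reads. For miR-142a-3p the third wt replicate of 9 weeks, listed at 0 RPM, stood apart from 0.132 to 0.149 RPM, a gap of 3 reads or fewer. The third wt replicate of 14 weeks, at 0.0844 RPM or 2.54e-05% of the listed sum, stood apart from libraries listed at 0. Beside libraries tied at 0 any value is flagged, and this one was flagged on both scales. The first ob/ob replicate of 14 weeks, at 0.159 RPM, stood apart from 17.1 to 18.6 RPM, and its log2 arm ratio of 13.78 stood apart from 7.56 to 7.72. For miR-142a-5p the first wt replicate of 14 weeks, at 1.19% of the listed sum, stood apart from 0.778% to 0.798%; this library has the lowest sum of the 15.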

How the results depend on the processing

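At 9 weeks 67 miRNAs were called (9 higher, 58 lower), against 38 after rescaling (20 higher, 18 lower), 35 as shares of the listed sum, 39 with rescaling and GC correction, and 53 to 71 with 1 library left out. At 14 weeks 26 were called (20 higher, 6 lower), against 48 after rescaling (26 higher, 22 lower), 48 as shares, 1 in lane 1, 51 in lane 2, and 13 to 46 with 1 library left out (46 without the first wt replicate, 15 without the third, 13 without the third ob/ob replicate). The interaction went from 0 to 4 without the filter and 0 to 3 with 1 library left out. Under the replicate block the counts were 32 at 9 weeks, 22 at 14 weeks and 2 for the interaction; with rescaling and GC correction added they were 10, 20 and 0. Same-numbered libraries did not all deviate together (correlations over 106 miRNAs of 0.03, -0.24 and -0.32 at 9 weeks and -0.14, 0.48, -0.08 and 0.16 at 14 weeks), nor did each library correlate best with its own number. These few correlations cannot settle whether libraries of the same number were paired. Under the block miR-511-3p at 9 weeks was -1.11 (limma adjusted p = 0.0571), and the log2 ratio of miR-511-3p to miR-142a-5p was -0.70 at 9 weeks and -0.58 at 14 weeks; the arm ratio at 9 weeks was -0.32, and at 14 weeks 1 complete pair gave no value.

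The log2 arm ratio at 14 weeks was -3.51 with a pseudocount of 0.5 (exact permutation p = 0.0286) and -7.26 to -5.19 with 1 library left out; at 9 weeks it ran from -0.94 to 0.059, turning without the first ob/ob replicate. miR-142a-5p turned at 14 weeks with GC correction (-0.28, also with the block) and in lane 1 after rescaling (-0.10), at 9 weeks after rescaling (0.0032; with 1 library left out -0.11 to 0.16, above 0 at 0.019, 0.0094 and 0.092 without wt replicates 1, 3 and 4 and at 0.16 without the first ob/ob replicate), and in the interaction with GC correction (-0.029; -0.11 with the block). miR-511-3p turned at 14 weeks in lane 1 (0.20) and in the rescaled interaction without the third ob/ob replicate of 9 weeks (-0.025). The difference of miR-142a-3p at 9 weeks turned as a share (6.9e-06%) and without the third ob/ob replicate (0.028 RPM, the other libraries left out in turn giving down to -0.052). Its difference at 14 weeks kept its direction, at 11.7 to 17.9 RPM with 1 library left out. The causes of these turns were not tested. A depth of 9.08 M reads (M, 1000000) in the first wt replicate of 14 weeks makes 1 read worth 0.110 RPM, which limits what can be read from the 3p arm there.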

Other observations

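In replicates 2 to 4 of ob/ob at 14 weeks, 16 of the 248 miRNAs, or 6.45%, lay above all 12 other libraries. miR-142a-3p was the 1 of these 16 that lay at least 10-fold above the highest of the 12. miR-19a-3p, a member of the miR-17-92 cluster, held 52.7 to 96.0 RPM in these 3 libraries and up to 32.4 RPM in the others. miR-340-5p held 1776 to 1999 RPM against up to 1255 RPM, and miR-192-5p, a hepatocyte miRNA, held 5521 to 6628 RPM against up to 5148 RPM. These miRNAs were chosen after their values were seen, and no test was made.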
